A study of Mus musculus with 4 samples.

Results

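The genes described here are 10 interferon-induced GTPases of the mouse, 6 guanylate-binding proteins (GBPs: Gbp2, Gbp3, Gbp4, Gbp5, Gbp7 and Gbp9) and 4 immunity-related GTPases (IRGs: Irgm1, Irgm2, Igtp and Iigp1). They were taken by gene symbol from a count table of 54532 genes, and all 10 were found in it. The table holds 4 RNA-seq libraries of WT peritoneal macrophages, 1 for each combination of normal medium (RPMI, 0% conditioned medium) or 30% 4T1 conditioned medium (4T1-CM) with DMSO or 10 µM CH223191. 4T1-CM is medium in which 4T1 mouse mammary carcinoma cells have grown, and CH223191 is an antagonist of the aryl hydrocarbon receptor (AHR), a ligand-activated transcription factor. The study's methods describe thioglycollate-elicited peritoneal macrophages of BALB/c mice, so all 4 cultures hold recruited inflammatory macrophages, and the inhibitor was given before 4T1-CM. The labels give neither age nor number of the mice nor the duration of treatment. An age range is stated in the methods for wild-type BALB/c mice. The comparisons ask how macrophages respond to soluble products of the tumour cells and how this response differs when AHR is blocked. With 1 library per condition there are no replicates, so pairs of libraries were compared by log2 ratios with a 95% interval that covers counting error only, and these compare the libraries, not the conditions.

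Both families are best known as effectors of interferon gamma in macrophages. GBPs are large GTPases related to dynamin that assemble on vacuoles and on bacteria and help to open them, which exposes microbial products to the inflammasomes. IRGs fall into effectors such as Iigp1 (Irga6), which load onto the vacuoles of intracellular parasites, and the regulators Irgm1, Irgm2 and Igtp (Irgm3), which sit on the cell's own membranes and hold the effectors inactive there. Their promoters are read through 2 kinds of element, the ISRE, bound by interferon regulatory factors, and the GAS element, named for activation by interferon gamma.

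The promoters of 5 members are shown so that these elements can be read in them: Gbp5, Gbp7 and Gbp3 of the chromosome 3 cluster and the regulators Igtp and Irgm2. Of the 10 members, 7 had a RefSeq promoter in the reference table (GRCm38.p6), and these were read over the 250 bases before the start of transcription. Among the windows printed below, those of Irgm2 and Gbp5 lie wholly within their gene models, which begin at chr11:58199618 and chr3:142493978. Whether the counted reads come from the starts after these windows was not tested. An ISRE was searched as GAAA and GAAA separated by any 2 bases and a GAS element as TTCNNNGAA, on both strands. All 7 members with an entry held an ISRE match, against 2.98% of 32851 promoter windows of that length. A GAS match was found in 4 of the 7 (Gbp5, Gbp7, Irgm2 and Igtp), against 7.02% of all windows. The AHR core motif GCGTG was found in 1 of the 7, Irgm2, and in 28.2% of all windows. A match describes letters and is not evidence of binding, and the family members share ancestry, so the matches are not independent of each other.

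In the 3 GBP promoters below, capitals mark the matches, read 5′ to 3′ on the gene's strand, and bases that GENCODE M21 places in an exon were left off. Gbp5 is printed over chr3:142496684-142496899, Gbp7 over chr3:142530086-142530335 and Gbp3, at the first of its starts, over chr3:142559794-142560025, all on the plus strand.
Gbp5: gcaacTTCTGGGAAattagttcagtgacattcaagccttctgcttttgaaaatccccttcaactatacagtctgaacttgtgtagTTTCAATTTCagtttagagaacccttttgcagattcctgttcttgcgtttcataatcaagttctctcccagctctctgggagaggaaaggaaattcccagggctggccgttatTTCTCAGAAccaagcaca
Gbp7: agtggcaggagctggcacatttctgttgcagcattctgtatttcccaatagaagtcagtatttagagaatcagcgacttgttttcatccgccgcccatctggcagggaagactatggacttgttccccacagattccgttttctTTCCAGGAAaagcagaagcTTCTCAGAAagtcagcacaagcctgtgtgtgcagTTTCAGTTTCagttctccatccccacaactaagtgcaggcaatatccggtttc
Gbp3: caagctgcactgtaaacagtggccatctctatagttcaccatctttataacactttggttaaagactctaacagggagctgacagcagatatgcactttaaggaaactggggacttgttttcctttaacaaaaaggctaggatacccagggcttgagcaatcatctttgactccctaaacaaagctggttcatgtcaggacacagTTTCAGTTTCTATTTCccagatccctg
Gbp5 and Gbp7 each hold 2 GAS matches and 1 ISRE match, apart from each other. Gbp3 holds 2 ISRE matches that overlap and no GAS match, and the window of its other start holds none of these motifs.

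The promoters of Igtp (chr11:58199306-58199555, plus strand) and Irgm2 (chr11:58214727-58214976, plus strand) are near copies that share a run of 55 bases.
Igtp: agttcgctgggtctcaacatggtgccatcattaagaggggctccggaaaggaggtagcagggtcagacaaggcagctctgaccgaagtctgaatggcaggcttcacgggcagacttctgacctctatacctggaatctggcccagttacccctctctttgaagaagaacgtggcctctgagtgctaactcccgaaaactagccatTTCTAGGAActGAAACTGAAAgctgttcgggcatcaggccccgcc
Irgm2: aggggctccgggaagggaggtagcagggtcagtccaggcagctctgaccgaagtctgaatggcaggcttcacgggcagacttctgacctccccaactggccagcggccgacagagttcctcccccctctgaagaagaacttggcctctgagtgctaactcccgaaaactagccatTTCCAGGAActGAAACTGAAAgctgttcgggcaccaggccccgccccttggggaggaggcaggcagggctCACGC
In both, a GAS match is followed after 2 bases by an ISRE match, with no overlap. This arrangement, GAS, 2 bases and ISRE, was searched after these sequences had been seen. It stands in 5 of the 32851 windows, those of Igtp, Irgm2, Tgtp1, Tgtp2 and Gm12185, of which Tgtp1 and Tgtp2 encode effector IRGs. The last 5 bases of the Irgm2 sequence are its AHR core match. Gbp2 and Irgm1 hold 1 and 2 ISRE matches and no GAS match, in windows that overlap annotated exons and are not printed.

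The libraries held 15535405 to 17557127 reads counted in genes, with TMM factors of 0.986 to 1.03, so depth was close and the scaling changed it little. In these bulk cultures, fewer cells of a type and less RNA per cell cannot be told apart. All 8 macrophage markers (Adgre1, Itgam, Csf1r, Cd68, Lyz2, Fcgr1, Mertk and Cd14) were detected in every library, and all 8 were higher in 4T1-CM in both inhibitor states. The AHR target Cyp1b1 had 65 and 19 reads in normal medium and 361 and 171 reads in 4T1-CM, with DMSO and with CH223191 respectively, while the target Cyp1a1 was at 0 reads in all 4 libraries. Of the other targets, Nqo1 had 28, 18, 70 and 33 reads, lower with CH223191 in 4T1-CM (log2 -0.97, -1.62 to -0.36). Tiparp, with 882, 972, 1529 and 1332 reads, was instead slightly higher with CH223191 in normal medium (log2 0.14, 0.01 to 0.28) and at -0.09 (-0.20 to 0.02) in 4T1-CM, and Ahrr had 13, 10, 25 and 23 reads.

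Levels are given in CPM, the reads of a gene scaled to the TMM-adjusted size of its library. Summed over the 6 GBP members, normal medium held 27.9 CPM under DMSO and 26.0 under CH223191, and 4T1-CM held 78.8 and 62.0 likewise. The 4 IRG members together reached 49.3, 57.2, 74.0 and 63.7 CPM in the same order. Both sums were thus higher in 4T1-CM in either inhibitor state. Levels of different genes were compared per kilobase of gene model. In normal medium with DMSO, Irgm1 was first at 5.94 CPM per kilobase, followed by Gbp2 at 4.99, Igtp at 3.60, Irgm2 at 2.01, Gbp7 at 1.39, Gbp3 at 1.19 and Gbp9 at 0.546. The counting intervals of Irgm1 and Gbp2 overlapped, as did those of Gbp7 and Gbp3, and Gbp5, Gbp4 and Iigp1 lay together at or below 0.0662. In 4T1-CM with DMSO, Gbp2 was first at 14.2 CPM per kilobase and Irgm1 second at 8.16, and their intervals did not overlap. Gbp3 moved up to 5.84, level within its interval with Igtp at 5.40. Irgm2 followed at 4.01 and Gbp7 at 2.93, ahead of Gbp9 at 0.718, Gbp5 at 0.560, Iigp1 at 0.275 and Gbp4 at 0.0153. The intervals of Gbp9 and Gbp5 overlapped, as did those of Gbp5 and Iigp1.

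**Figure D1:**
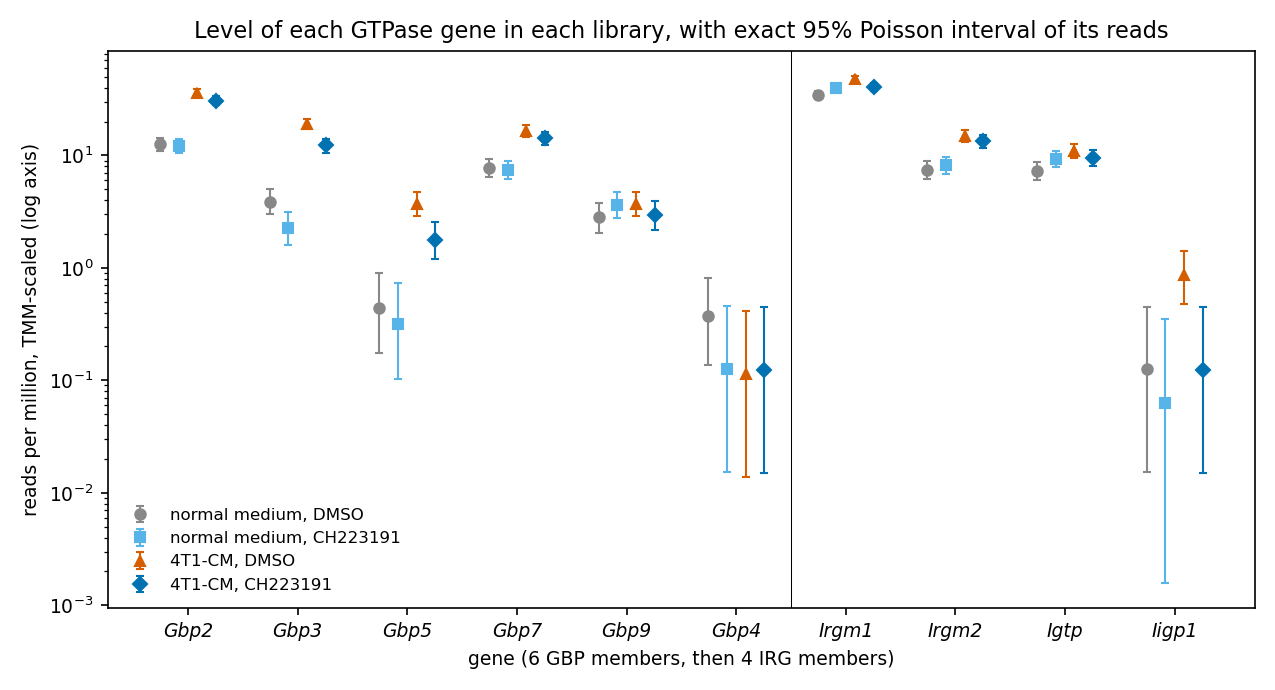
Level in CPM (log axis) of each of the 10 genes in the 4 libraries, 1 marker per library, with the exact 95% Poisson interval of its reads. Gbp2, Gbp3, Gbp5 and Gbp7 lie higher in both 4T1-CM libraries than in both libraries of normal medium, while the 4 intervals of Gbp9 overlap.

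Gbp2, Gbp3 and Gbp5 were more than 2-fold higher in 4T1-CM with either inhibitor state, although Gbp5 reached 10 reads, the minimum for a gene to be kept, only in 4T1-CM and so had to be higher there. All 3 lie with Gbp7 in the GBP cluster of chromosome 3, whose loss weakens the defence of mice against Toxoplasma. In the order normal medium with DMSO, normal medium with CH223191, 4T1-CM with DMSO and 4T1-CM with CH223191, Gbp5 had 7, 5, 65 and 29 reads. Both 4T1-CM libraries lay far above both others, on a low base. With DMSO the ratio was 7.95-fold (log2 2.99, 95% interval 1.96 to 4.45), and with CH223191 it was 5.25-fold (log2 2.39, 1.12 to 4.23). Gbp5 is known for its part in the assembly of the NLRP3 inflammasome, and its gene lies at chr3:142493978-142522344 (GRCm38, plus strand).

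Gbp3 (chr3:142560026-142573209, plus strand) had 62, 36, 334 and 199 reads in the same order. The lower of the 4T1-CM libraries held more than the higher of the normal medium libraries. The log2 ratio to normal medium was 2.29 (1.90 to 2.71) with DMSO and 2.42 (1.92 to 2.99) with CH223191, a 4.87-fold and a 5.35-fold difference. Gbp2 (chr3:142620602-142638008, plus strand), which coats pathogen vacuoles and is among the GBPs that carry a lipid anchor, had 200, 193, 626 and 499 reads. The 2 libraries of each medium lay close together and those of the other medium far from them. Its log2 ratio was 1.51 (1.28 to 1.75) with DMSO and 1.34 (1.10 to 1.59) with CH223191.

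Gbp7 (chr3:142530342-142550149, plus strand), linked to the assembly of the phagocyte oxidase, had 124, 119, 288 and 230 reads. Its ratio was 2.11-fold with DMSO (log2 1.08, 0.77 to 1.40), just past 2-fold, and 1.89-fold with CH223191 (log2 0.92, 0.59 to 1.25), just short of it. Of its exon bases, 11.3% also belong to the model Gm43802 on the same strand. For the 2 members on chromosome 5, Gbp9 and Gbp4, the media were not separated beyond counting error. Gbp9 (chr5:105077630-105139539, minus strand) had 45, 58, 65 and 48 reads, with a log2 ratio of 0.39 (-0.18 to 0.98) with DMSO and -0.30 (-0.89 to 0.27) with CH223191. Gbp4 (chr5:105115767-105139586, minus strand) had 6, 2, 2 and 2 reads, and was not kept, since no library reached the minimum of 10 reads. Its log2 ratio with DMSO, -1.51, had an interval from -5.06 to 0.76.

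**Figure D2:**
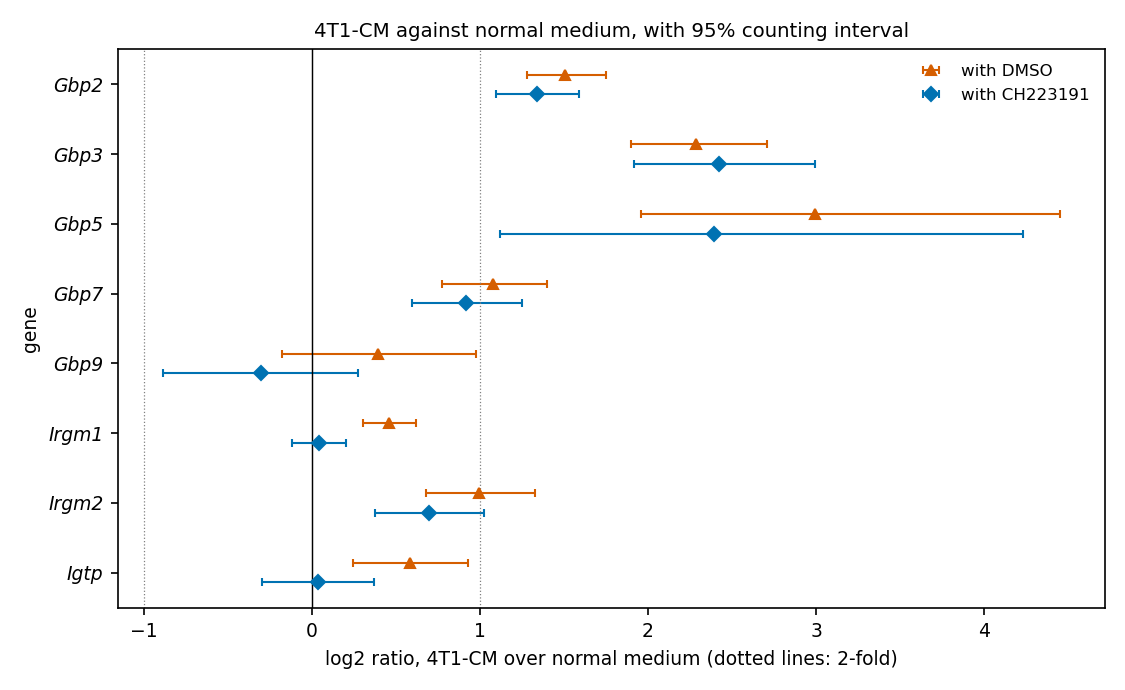
Log2 ratio of 4T1-CM over normal medium (x axis) for 8 genes (y axis), with DMSO (triangles) and with CH223191 (diamonds), and the 95% counting interval as bars. Gbp2, Gbp3 and Gbp5 lie beyond 2-fold in both states, and Irgm1 and Igtp lie above 0 with DMSO and at 0.04 with CH223191. Gbp4 and Iigp1, with 6 and 15 reads at most in a library, are not drawn.

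The IRG regulators were higher in 4T1-CM with DMSO, with ratios below those of the chromosome 3 GBPs, though the interval of Irgm2 overlapped those of Gbp7 and Gbp2 and that of Igtp overlapped that of Gbp7. Irgm2 (chr11:58199618-58222782, plus strand) had 118, 131, 259 and 217 reads. Its 2 libraries in 4T1-CM both exceeded those in normal medium, with a log2 ratio of 0.996 (0.68 to 1.33, 1.99-fold, just under the 2-fold call) with DMSO and 0.70 (0.38 to 1.02) with CH223191. Igtp (chr11:58199556-58207591, plus strand) had 116, 148, 191 and 155 reads. The pair with DMSO stood apart (log2 0.58, 0.24 to 0.93) and the pair with CH223191 did not (0.04, -0.30 to 0.37). Irgm1 (chr11:48861968-48871683, minus strand), which also takes part in autophagy of mycobacteria, had 550, 629, 830 and 661 reads. It likewise had a log2 ratio of 0.46 (0.30 to 0.62) with DMSO and 0.04 (-0.12 to 0.20) with CH223191. Igtp and Irgm2 overlap on the same strand, and 8.01% of the exon bases of Igtp and 4.39% of those of Irgm2 are shared, so a small part of their reads could go to either gene. The effector Iigp1 had 2, 1, 15 and 2 reads. Its only library above 3 reads was 4T1-CM with DMSO, 5.65-fold above normal medium with DMSO with a wide interval (log2 2.50, 0.67 to 5.94). No fold is given with CH223191, where both libraries held 3 reads or fewer.

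With DMSO, 5 of the 10 members were at least 2-fold higher in 4T1-CM (Gbp2, Gbp3, Gbp5, Gbp7 and Iigp1) and none of the 9 kept was 2-fold lower, where 12.2% of the 13715 kept genes were 2-fold higher and 6.12% 2-fold lower. With CH223191, Gbp2, Gbp3 and Gbp5 were past 2-fold, 3 of 10 against 12.0% of genes, and none of the 9 kept was 2-fold lower, against 7.86%. The same 3 were past 2-fold in both states, against 8.18% of genes, and without Gbp5 this was 2 of the 7 members that met the minimum in all 4 libraries, against 4.82% of such genes. Gbp5 and Iigp1 passed the read minimum only through 4T1-CM, so they had to be higher there. Among the 7 members that met the minimum in all 4 libraries, Gbp2, Gbp3 and Gbp7 were past 2-fold with DMSO, 3 of 7 against 6.99% of the 11765 genes that met the same minimum. At 1.5-fold, Irgm2 joined those 5 with DMSO (6 of 10 against 20.0% of genes), and of these the 5 other than Iigp1 were past 1.5-fold with CH223191 too (against 20.8%) and so in both states (against 13.9%). Among the 7 members with the minimum met everywhere this was 4 of 7 with CH223191, against 15.7% of such genes, and 4 of 7 in both states, against 10.0%. The median log2 ratio over these 7 members was 0.996 with DMSO and 0.70 with CH223191, beside -0.02 in both states over the genes of that kind. In an additive fit over the 4 libraries, which assumes that medium and inhibitor act independently and leaves 1 residual degree of freedom, edgeR's quasi-likelihood test with Benjamini-Hochberg adjustment gave the medium term an adjusted p of 5.1e-05 for Gbp2, 1.1e-05 for Gbp3, 0.0011 for Gbp5, 0.0016 for Gbp7 and 0.0051 for Irgm2. Those 5 rose, against 16.4% of genes, though Gbp5 met the read minimum in 4T1-CM alone. In that edgeR fit the adjusted p of Irgm1 was 0.20, of Igtp 0.26, of Iigp1 0.14 and of Gbp9 0.92.

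CH223191 went with lower levels of the kept members in 4T1-CM, by amounts that were mostly small. Gbp4, which was not kept, had 2 reads in each 4T1-CM library. Gbp5 was 2.06-fold lower with CH223191 than with DMSO in 4T1-CM (29 against 65 reads, log2 -1.04, -1.74 to -0.40), and Gbp3 was 1.56-fold lower (199 against 334 reads, log2 -0.64, -0.90 to -0.38). Iigp1 had 2 against 15 reads, a log2 ratio of -2.52 with an interval from -5.97 to -0.69. Gbp5 and Iigp1 were thus 2-fold lower, 2 of 10 members against 2.62% of kept genes, and no member was 2-fold higher, against 2.8%. Iigp1 met the read minimum only in 4T1-CM with DMSO, so it had to be lower with CH223191, and nothing is read from its part in these counts. None of the 7 members that met the minimum everywhere was 2-fold lower, against 0.442% of such genes. At 1.5-fold the count was 3 of 10 with Gbp3, against 6.02% of genes, and 1 of 7 against 2.41%. Smaller differences had intervals below 0 for Gbp2 (log2 -0.22, -0.39 to -0.05) and Irgm1 (-0.22, -0.37 to -0.07), which makes 5 of 10 members with such an interval, Iigp1 included, against 13.5% of genes, and 3 of 7 against 14.1% where the minimum was met everywhere. Gbp7 (-0.22), Gbp9 (-0.33), Irgm2 (-0.15) and Igtp (-0.19) were also below 0, each with an interval that reached above it. The 7 members that met the minimum in all 4 libraries lay without exception below 0, where 48.8% of genes of that kind and 49.2% of all kept genes did, and their median was -0.22 beside 0.0055 for genes of that kind.

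In normal medium the inhibitor did not go with a common direction. No member was 2-fold higher or lower, against 4.84% and 3.31% of genes. Gbp3 was 1.71-fold lower (36 against 62 reads, log2 -0.77, -1.42 to -0.17), which makes it the member with an interval below 0 in both media. At 1.5-fold it was 1 of 2 members lower, beside Iigp1 on 1 against 2 reads, against 7.49% of genes. Gbp2 (-0.05) and Gbp7 (-0.06) were near 0, and Gbp5 (5 against 7 reads, log2 -0.44, -2.48 to 1.39) could not be placed on either side at this depth, nor could Gbp4 (2 against 6 reads). The IRG regulators were higher with CH223191, Irgm1 by log2 0.20 (0.03 to 0.36), Igtp by 0.35 (-0.01 to 0.72) and Irgm2 by 0.15 (-0.22 to 0.53), as was Gbp9 by 0.37 (-0.22 to 0.96). These 4 members were therefore above 0 in normal medium and below 0 in 4T1-CM, against 23.4% of genes. In the additive fit, edgeR's test of the inhibitor term called 0 members after adjustment, against 0.0729% of genes higher and 0.00729% lower, and 1 member without adjustment, Gbp3 (lower, adjusted p = 0.59), where 2.33% of genes were lower and 4.08% higher without adjustment.

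**Figure D3:**
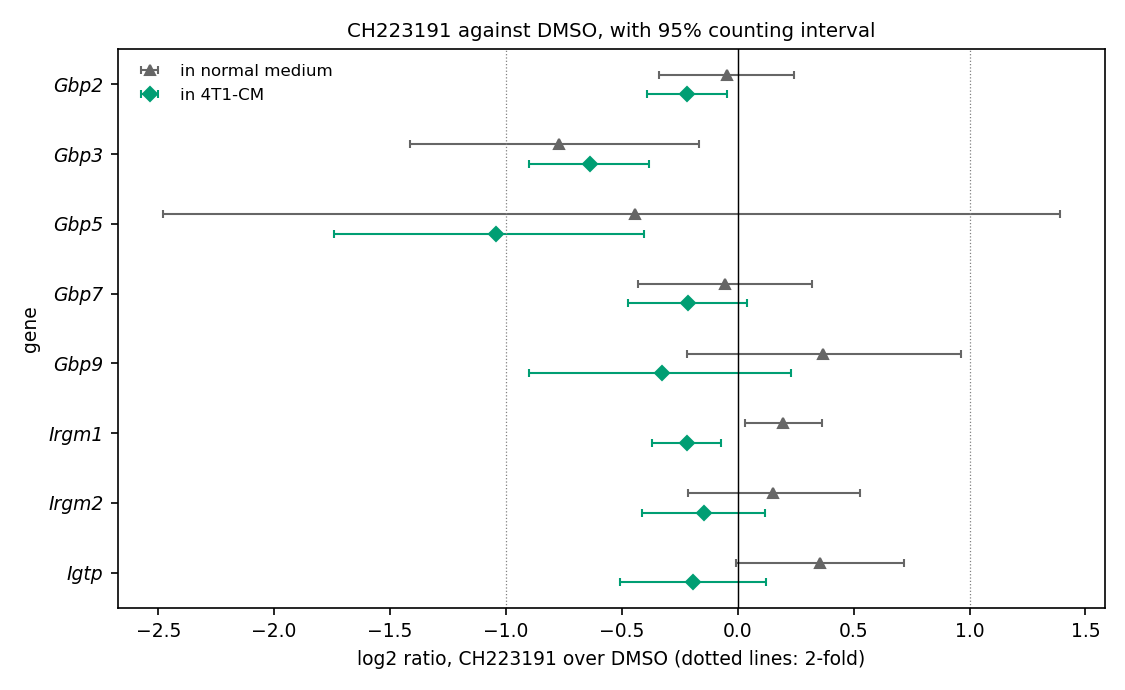
Log2 ratio of CH223191 over DMSO (x axis) for 8 genes (y axis), in normal medium (triangles) and in 4T1-CM (diamonds), and the 95% counting interval as bars. All 8 genes lie below 0 in 4T1-CM, while Gbp9, Irgm1, Irgm2 and Igtp lie above 0 in normal medium. Gbp4 and Iigp1 are not drawn because of their low reads.

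The response to 4T1-CM with CH223191 was set against that with DMSO by the difference of both log2 ratios. It was -0.42 for Irgm1 (-0.64 to -0.20) and -0.55 for Igtp (-1.01 to -0.08), the only 2 members whose counting interval lay below 0, where 17.4% of genes had such an interval. For both, the higher level with CH223191 in normal medium and the lower level in 4T1-CM each made up part of the difference. Gbp2 (-0.17, -0.50 to 0.16), Gbp7 (-0.16, -0.60 to 0.28) and Irgm2 (-0.30, -0.74 to 0.14) had intervals that included 0. Gbp3, lower with CH223191 in both media by much the same factor, had a difference of 0.13 (-0.51 to 0.78). The values for Gbp5 (-0.60, -2.31 to 1.11) and Gbp9 (-0.69, -1.47 to 0.08) were of similar size to that of Igtp but less well determined. For Iigp1 and Gbp4, each with 3 libraries at 3 reads or fewer, no difference is given. The median over the 7 members that met the read minimum everywhere was -0.30, beside -0.0022 over the genes of that kind.

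The other genes of both families were taken as a fixed list. Gbp2b (Gbp1), next to Gbp2 in the cluster, had 89, 93, 272 and 245 reads, with a log2 ratio of 1.47 (1.13 to 1.84) in 4T1-CM with DMSO and 1.36 with CH223191. Gbp6 and Gbp10 of the chromosome 5 cluster were found almost solely in 4T1-CM, Gbp6 with 0, 0, 19 and 13 reads and Gbp10 with 0, 3, 39 and 15 reads. With DMSO this makes Gbp6 at least 5.77-fold and Gbp10 at least 11.8-fold higher, taking 3 reads as the floor of the library at 0. Gbp6 and Gbp10 met the read minimum only through 4T1-CM, so they had to be higher there. However, 70.7% of the 50-base words of Gbp6 transcripts and 84.1% of those of Gbp10 also occur in transcripts of other genes, each most often in the other or in Gm43302, so their reads may not be assigned to 1 gene. For the 10 members that share was 0.379% to 12.7%. Gbp8 had at most 5 reads and Gbp11 none in any library.

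Among the other IRG genes, 3 of the 7 kept were at least 2-fold higher in 4T1-CM with DMSO, against 12.2% of genes, and 2 with CH223191, against 12.0%. None was 2-fold lower in either, against 6.12% and 7.86%. Ifi47 (Irgd) had 116, 129, 326 and 224 reads, with log2 ratios of 1.35 and 0.76. Its difference between both responses, -0.59 (-1.03 to -0.15), was of the size found for Igtp. Tgtp2, an effector whose reads are shared with Tgtp1, had 9, 10, 27 and 21 reads, and Gm12250 (Irgb10) had 19, 19, 45 and 41. Irgq, a distant family member not known as an interferon target, had 674, 625, 794 and 679 reads and a log2 ratio of 0.10 in 4T1-CM with DMSO. Gm5431 had 141, 155, 251 and 183 reads. Unlike the kept members, 9930111J21Rik2 (172, 270, 248 and 305 reads) was higher with CH223191 in 4T1-CM (log2 0.41, 0.16 to 0.65), and 9930111J21Rik1 (95, 104, 112 and 131 reads) was at 0.33 (-0.04 to 0.71). Of their 50-base words, 59.8% and 83.2% also occur in transcripts of other genes, so their reads may not be assigned to 1 gene. The interferon-induced GTPases of the Mx and GVIN families were also higher in 4T1-CM with DMSO, 4 of 4 by at least 2-fold against 12.2% of genes, though Mx2 met the read minimum only through 4T1-CM and had to be higher. Mx1, which blocks influenza viruses in resistant mice, had 25, 18, 88 and 51 reads, and Mx2 had 2, 6, 56 and 22.

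No reads were found for any of the 8 interferon genes listed (Ifng, Ifnb1, Ifna1, Ifna2, Ifna4, Ifna5, Ifnl2 and Ifnl3) in any library, which allows up to 3 reads, or 0.171 to 0.189 CPM. Whether a 0 in this table means silence was not tested. Oas1a was also listed at 0 in all 4 libraries, where Oas3 had up to 1122 reads. Of the receptors, Ifnar1 and Ifnar2, which bind type I interferons, had log2 ratios of 0.97 and 1.17 in 4T1-CM with DMSO and 0.96 and 1.02 with CH223191. For the receptors of interferon gamma these were 0.09 and 0.20 (Ifngr1) and 0.57 and 0.45 (Ifngr2). Jak2, the kinase at Ifngr2, was higher by 0.98 and 1.24, Jak1 had -0.05 and 0.27, and Tyk2, the kinase at Ifnar1, had -0.21 and -0.51. Of the receptors and kinases, 1 of 7 was at least 2-fold higher with DMSO, against 12.2% of genes, and 2 with CH223191, against 12.0%.

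The interferon regulatory factors and related regulators given here were less than 2-fold apart between the media, apart from Irf7. Irf7, itself an interferon target, had 225, 330, 2954 and 2132 reads (log2 3.58 with DMSO and 2.66 with CH223191). Irf1, which is needed for much of the GBP induction by interferon gamma, had 315, 350, 348 and 348 reads and a log2 ratio of 0.01 and -0.04. Irf8 (0.03 and 0.12) and Batf2 (0.03 and -0.25) had ratios near 0, and Irf2, a repressor at the same element, had -0.29 and -0.01. Nlrc5 had log2 ratios of 0.67 and 0.72, and Ciita had 10 to 15 reads.

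Among the other lists, the type I interferon antiviral genes had the same direction as the GBPs of chromosome 3 in the response to 4T1-CM. Of the 14 kept, 11 were at least 2-fold higher in 4T1-CM with DMSO (median log2 1.81) and 9 with CH223191 (1.07). Over all kept genes, 12.2% were 2-fold higher and 6.12% 2-fold lower with DMSO, and 12.0% and 7.86% with CH223191. With DMSO the largest ratio was that of Ifit1 (4.31) and the smallest that of Oasl1 (0.50). All 14 were below 0 for CH223191 against DMSO in 4T1-CM (median -0.47), as were the 7 members that met the read minimum everywhere, where 49.2% of kept genes lay below 0. In normal medium 12 of the 14 were instead above 0 (median 0.27), against 50.7% of genes that met the minimum everywhere. Gbp2 (-0.05) and Gbp7 (-0.06) were near 0 there and Gbp3 (-0.77) was lower. The response with CH223191 minus that with DMSO was below 0 for 13 of the 14 (median -0.71), against 50.2% of such genes. It was -0.17 for Gbp2, 0.13 for Gbp3 and -0.16 for Gbp7. The antigen processing genes that interferon gamma induces had a median of -0.01 with DMSO, with B2m at 1.15, Psmb10 at -0.998, and 1 of 9 at least 2-fold higher. With CH223191 their median was -0.36, none was 2-fold higher, and Psmb10 (-1.16) and Psme2 (-1.13) were 2-fold lower. The list of chemokines and enzymes that interferon gamma induces in macrophages was split. Its chemokines were low, Cxcl9 and Cxcl11 at 0 reads in all 4 libraries and Cxcl10 with 0, 0, 9 and 1 reads, and Ido1 had at most 2. The 3 genes kept were all past 2-fold in 4T1-CM in both states, against 8.18% of genes, though Nos2 met the read minimum only through 4T1-CM and had to be higher. Acod1, which makes itaconate, had 7, 12, 7661 and 4309 reads, Cd274 (PD-L1) had 1247, 1539, 6284 and 6091, and Nos2 had 0, 1, 45 and 44. Among the inhibitors of the pathway, Socs3 had 20, 44, 1622 and 1385 reads and Usp18, which dampens the type I receptor, 87, 111, 331 and 176, while Socs1, the main brake on interferon gamma, had 37, 24, 29 and 26.

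**Figure D4:**
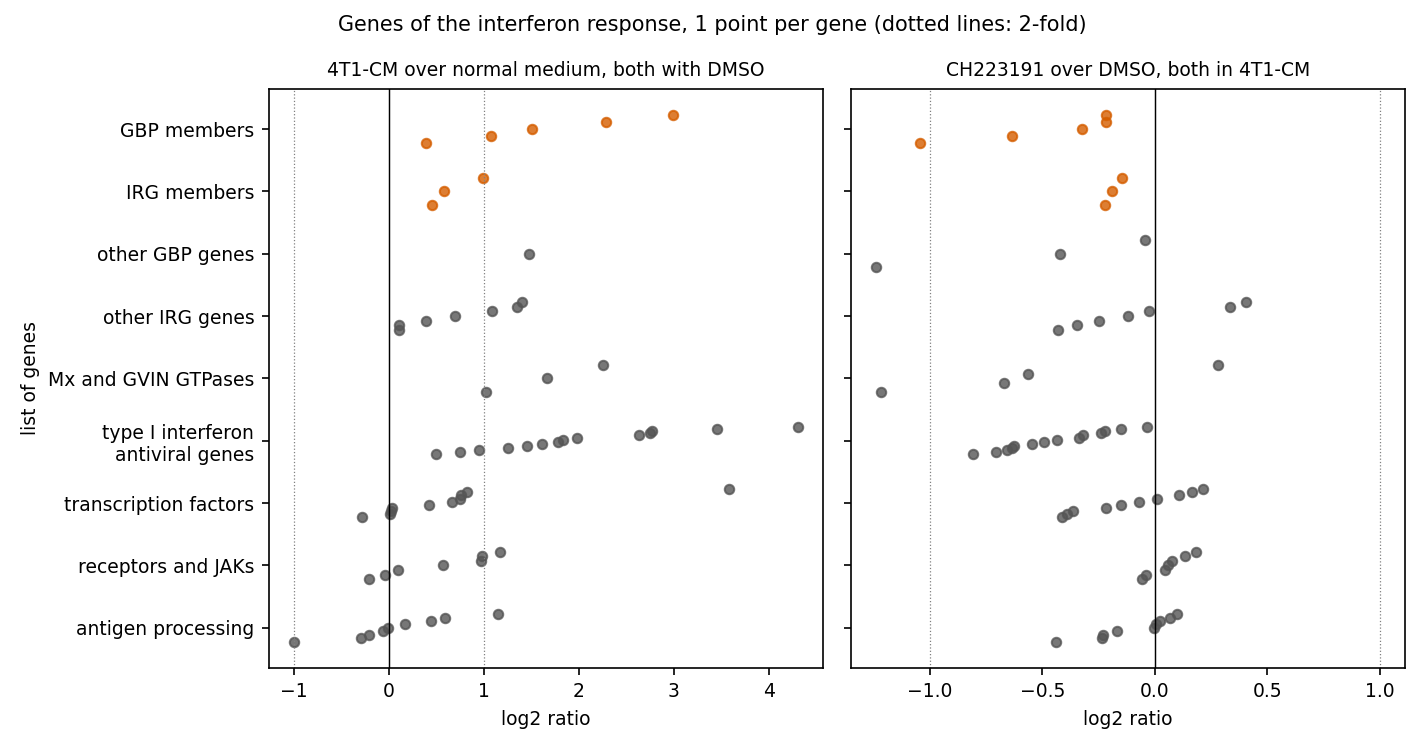
Log2 ratios of the members (orange) and of 7 other lists of genes (grey), 1 point per gene with more than 3 reads in both libraries of the panel, for 4T1-CM over normal medium with DMSO (left) and for CH223191 over DMSO in 4T1-CM (right). The antiviral genes lie to the right of 0 on the left and to the left of 0 on the right, as the members do, whereas the receptors and antigen processing genes lie around 0 on the right.

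The partners through which the GTPases act did not share a common direction. Of the 10 autophagy genes whose products place GBPs and IRGs on membranes, none was 2-fold higher or lower in 4T1-CM with DMSO (range of log2 -0.44 to 0.74, with Atg5 the highest). Over all kept genes, 12.2% were higher and 6.12% lower by that fold. With CH223191, Atg5 was just past 2-fold (log2 1.02) and none was 2-fold lower, against 12.0% of genes higher and 7.86% lower. Of the 8 inflammasome genes, Casp4 (log2 1.41 and 1.15), Nlrp3 (1.26 and 1.46) and Il1b (2, 8, 3162 and 2252 reads) were past 2-fold in both states, against 8.18% of genes. Il1b met the read minimum only through 4T1-CM and had to be higher there. Aim2 (-0.03) and Gsdmd (-0.33) were not past 2-fold with DMSO. The 5 genes for the prenylation of GBPs were all below 0 with DMSO, between -0.51 and -0.08. Of the genes that met the minimum everywhere, 51.9% were below 0. The interval of Pggt1b (-0.08, -0.32 to 0.17) reached above 0. With CH223191, 3 of the 5 were below 0, against 51.0% of such genes, and Pggt1b (0.19) and Icmt (0.11) were above it.

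Genes of other cell types were read beside these results. Fibroblasts also express GBPs and IRGs under interferon, and the 6 fibroblast markers summed to 63.0 and 30.1 CPM in normal medium and 149 and 127 in 4T1-CM, with DMSO and with CH223191 respectively. Of the 6, 4 were at least 2-fold higher in 4T1-CM in both states, against 8.18% of genes. Of these markers Lum had 3, 0, 0 and 0 reads. The markers of T cells and NK cells, the main sources of interferon gamma, summed to at most 0.914 CPM, and 7 of 9 were at 0 reads in every library, including Cd3d, Cd3e, Cd3g and Ncr1. The epithelial markers, which 4T1 cells carry, summed to 0.439 to 1.48 CPM, of which Cdh1 had 3, 7, 16 and 20 reads and no other had more than 4. Neutrophil markers (0.400 to 1.07 CPM), B cell markers (0.314 to 1.17), mesothelial markers (0.228 to 1.32) and dendritic cell markers (1.01 to 3.77) were low, with Ly6g and Krt19 at 0 in all libraries. The mast cell and eosinophil markers consisted of Siglecf, with 251, 221, 105 and 88 reads, and 5 others with at most 2 reads. The part of these cell types in the members' ratios was not tested.

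The profile of the 9 kept members across the 4 libraries was taken as the median of their log2 CPM after centring each gene. It was -0.46, -0.52, 0.62 and 0.36. Gbp5 and Iigp1, among these 9, met the read minimum only through 4T1-CM and had to be higher there. The height of the profile in 4T1-CM thus rests partly on the filter. Gbp7 lay nearest to the profile (root-mean-square difference 0.0179), followed by Irgm2 (0.106) and Gbp2 (0.224). Gbp5 (0.912), Iigp1 (0.893) and Gbp3 (0.745) lay farthest. Among 8319 genes averaging 10 CPM or more, the 10 nearest were Cdc42bpa (0.0219), Traf3 (0.0331), Itga5 (0.0495), Tnfrsf1b (0.0540), Cysltr1 (0.0596), Pde8a (0.0597), Mrpl45 (0.0614), Zranb3 (0.0665), Eno1 (0.0672) and Kank2 (0.0676), against a median of 0.538. Over 4 libraries such nearness describes only a profile of about 2-fold between the media and little between DMSO and CH223191.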

How the data were processed

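Read counts per gene were taken from a single table as the authors deposited them, whole numbers without normalization. The submitters' processing notes name HISAT2 2.0.5 and DESeq2, and the genome build and the strand setting are not given in the sources used here. Of 54409 genes shared with GENCODE M21 (GRCm38), 53499 had identical coordinates in the table. This reference is of C57BL/6 and the mice were BALB/c, and the effect on counts was not tested. The members and gene lists were chosen with earlier results of these data known. Genes with at least 10 reads in a library were kept (13715), and libraries were scaled with TMM (edgeR 4.0.16, R 4.3.3). Log2 ratios were taken after a prior count of 0.5, with the exact Clopper-Pearson 95% interval (scipy 1.17.1) of the split of reads between 2 libraries. The interval of a difference of ratios is the normal one from the counts. A call is a 2-fold difference. No test across genes is possible for a pair of libraries, and the only p-values come from the additive edgeR fit. Procedures were tested on simulated data. The text names the 10 members, the genes of fixed lists, and the 10 genes with the nearest profile. Motifs were searched in RefSeq promoters. Some genes of these lists are not reported here.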

Additional observations from a re-analysis of the deposited data

Results flagged for a closer look

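For 4 members, a single effect took opposite directions in both states of the other factor. Of the kept genes, 23.4% were above 0 with CH223191 in normal medium and below 0 in 4T1-CM. The effect of CH223191 was above 0 in normal medium and below 0 in 4T1-CM for Irgm1 (difference of log2 ratios -0.42), Igtp (-0.55), Irgm2 (-0.30) and Gbp9 (-0.69). Of these 4, Irgm1 was the one whose counting intervals excluded 0 in both media. For Gbp9 the response to 4T1-CM was also above 0 with DMSO and below 0 with CH223191, the same difference of -0.69 read the other way. With 1 library per condition none of these differences was tested.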

How the results depend on the processing

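The alternatives were scaling by DESeq2 size factors or total counts, no filter on reads, a minimum of 10 reads in each of the 4 libraries, only protein-coding genes, a prior count of 5, removal of the trend on gene length, and a 1.5-fold call. Of 91 comparisons with the main counts, medians and levels, 85 stayed within a set band. This was 1.5 times for a count and the counting interval for a level. For a median it was the median half-width of the single members' counting intervals. All 305 comparisons for single members stayed within that member's own counting interval. Such intervals are wide at low reads, so this is a weak check there. In 4T1-CM, CH223191 against DMSO gave 2 members past 2-fold, but 1 with a prior count of 5 and 0 with the minimum met in each library, where fewer members are left, while the share of all genes past the fold in either direction went from 5.42% to 2.35% and 1.16%. In normal medium it gave 0, but 1 without a filter and 2 at 1.5-fold, where the share of all genes went from 8.15% to 23.2% and 18.1%. 4T1-CM with CH223191 gave 3, and 6 at 1.5-fold (Iigp1 included, on 2 against 1 reads), where the share went from 19.9% to 38.4%. By 2-fold in both states 3 members were higher with 4T1-CM (8.18% of genes), and by the adjusted p of the additive fit, another kind of call, 5 (16.4%), both with Gbp5. With the minimum met in each library the 2-fold count was 2 of 7 (4.82%). The median ratio of all 10 members to normal medium with CH223191, 0.70, was 0.434 with a prior count of 5. This drop came from Iigp1, on 2 against 1 reads, since Irgm2, the other middle value, only went from 0.70 to 0.68. Irgm1 with CH223191, at 0.04, came to -0.0013 without the length trend. No paired analysis was possible because each condition has 1 library and the labels carry no replicate numbers. Replicate variation is unknown, so intervals understate the error, and members under 10 reads in normal medium (Gbp5, Iigp1 and Gbp4) have wide ones.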
